A study of Rattus norvegicus with 6 samples.

Results

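In rat cortical neurons, the nuclear peaks with the highest SYNCRIP crosslinking scores of every library were a pair of short regions on chromosome 4, one on each strand, with 3160 nt between them. This order holds for the score per peak. Per 20-nt bin, a narrower peak elsewhere on chromosome 4 ranked first in 2 of the 3 libraries. The pair was chosen by its scores in these same libraries, as all peaks between positions 77455000 and 77468000 of chromosome 4 (rn6), so its scores and ranks are given as a description, with no test. Each of the 3 SYNCRIP libraries had exactly 2 peaks in this 13-kb window, of 5687, 4163 and 2733 peaks in all in replicates 1, 2 and 3. Merged over libraries, they are 2 of 7023 regions, and both are among the 1747 regions with peaks in all 3 libraries. Which RNAs are made at these positions was not analysed here, for lack of an rn6 annotation and sequence, so the regions are named by strand and position.

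The study used individual-nucleotide resolution crosslinking and immunoprecipitation (iCLIP) on cytoplasmic RNA of primary cortical neurons from Sprague-Dawley rats, at day 6 in vitro. The cells of all 6 samples had received 300 mJ/cm2 of UV-C. In 3 of them the RNA was recovered with an antibody against SYNCRIP (hnRNPQ), and the other 3 were precipitated with an IgG1 isotype control and were not analysed here. No value below is therefore set against the background of the precipitation. The submitters describe the replicates as biological. The label of the cells as neurons could not be set against marker genes, since peaks were not matched to genes.

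SYNCRIP is an RNA-binding protein with several RNA recognition motifs, found in the cytoplasm as well as the nucleus. It is known for roles in the stability, transport and translation of messenger RNA, and in neurons it is a component of RNA transport granules. In iCLIP, ultraviolet light links a protein to the RNA it touches, and reverse transcription tends to stop at the linked base, so that fragment ends pile up beside the contact. A short non-coding RNA or a single binding site can give a compact pile, whereas a long bound stretch can give a row of peaks. The signal also grows with the abundance of the RNA, which was not measured in these lists.

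The plus-strand peak ran from 77459781 to 77459880, which is 100 nt or 5 bins of the 20-nt grid on which the lists are built. The minus-strand peak ran from 77463041 to 77463100, which is 60 nt or 3 bins. The bounds of both were identical in all 3 libraries. With the plus-strand region at the lower coordinates and the minus-strand region at the higher ones, transcripts covering them would run towards each other. The peaks together covered 160 nt of a span of 3320 nt, and no list had any other peak between them or in the rest of the window.

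**Figure D1:**
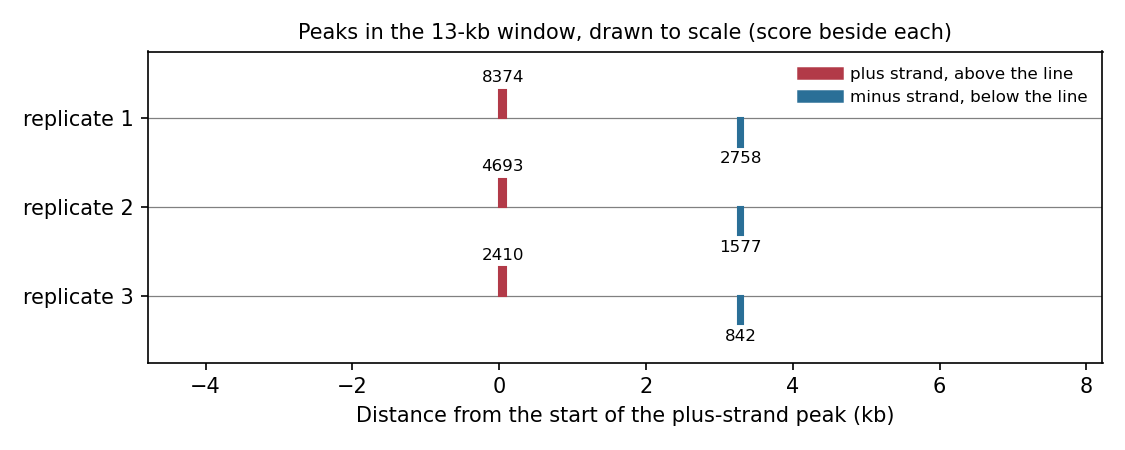
Peaks in the 13-kb window in each SYNCRIP library, with distance in kb from the start of the plus-strand peak on the x axis and 1 line per replicate. Bars above a line are on the plus strand, bars below on the minus strand, their widths are to scale, and the number beside each is its score; the bars stand at the same places in all 3 libraries.

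Few of all peaks of this width had identical bounds in the 3 lists, counting peaks missing from another list as not identical. Of peaks at least 60 nt wide, 38 had the same start, end and strand in all 3 lists. These made up 6.23% of the 610 such peaks in replicate 1 (95% Wilson interval 4.57 to 8.43), 9.13% of 416 in replicate 2 (6.73 to 12.3) and 17.2% of 221 in replicate 3 (12.8 to 22.7). Of peaks at least 100 nt wide, 11 did so, or 5.79% of 190 (3.26 to 10.07), 8.09% of 136 (4.58 to 13.9) and 13.9% of 79 (7.96 to 23.2). The intervals cover counting error only. The plus-strand member belongs to both groups, and the minus-strand member, at 60 nt, to the first. Over all widths, 815 peaks were identical in the 3 lists, or 14.3%, 19.6% and 29.8% of the peaks of replicates 1, 2 and 3. All of these shares mix absence from a list with differing bounds. They do not give how often a peak called in all 3 lists kept its bounds. Over all widths, the 815 identical peaks stand beside 1747 regions with peaks in all 3 libraries. The matching count of regions at least 60 nt wide was not computed. Shares among high-scoring peaks alone were not computed. The mitochondrial peak at 281 to 380, also 100 nt wide, had identical bounds in all 3 lists as well. The 815 identical peaks occupy the first 815 rows of each list, so the lists were ordered together at some step before deposit. The part of that step in the shared bounds was not tested.

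The plus-strand peak had a score of 8374 in replicate 1, 4693 in replicate 2 and 2410 in replicate 3, and ranked first in each list. The minus-strand peak had scores of 2758, 1577 and 842 and ranked 2, 3 and 2. The scale of the score is not given in the sources used here, and the lists differ in their lowest score (32, 26 and 20), so that the fall from replicate 1 to replicate 3 says nothing about SYNCRIP binding. Against the median score of its own list, the plus-strand peak was 186, 130 and 89.3 times higher and the minus-strand peak 61.3, 43.8 and 31.2 times higher. The plus-strand score lay above the minus-strand score in every library, with no overlap when each was taken as a share of its list.

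As a share of the summed score of its list, the plus-strand peak held 2.50%, 2.43% and 2.56% in the respective replicates, with a mean of 2.50% ± 0.06 (SD, n = 3). The minus-strand peak held 0.823%, 0.817% and 0.894%, a mean of 0.845% ± 0.043 (SD, n = 3). The pair thus held 3.34% ± 0.10 of the score (SD, n = 3), while it made up 0.0352%, 0.0480% and 0.0732% of the peaks. The 20 highest-scoring peaks of a list held 7.28%, 7.71% and 8.18% of its score, of which 3.96, 4.46 and 4.73 percentage points belonged to peaks outside the pair. Without the pair, the mean score of a peak went from 58.9 to 57.0 in replicate 1, from 46.3 to 44.9 in replicate 2 and from 34.4 to 33.3 in replicate 3.

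**Figure D2:**
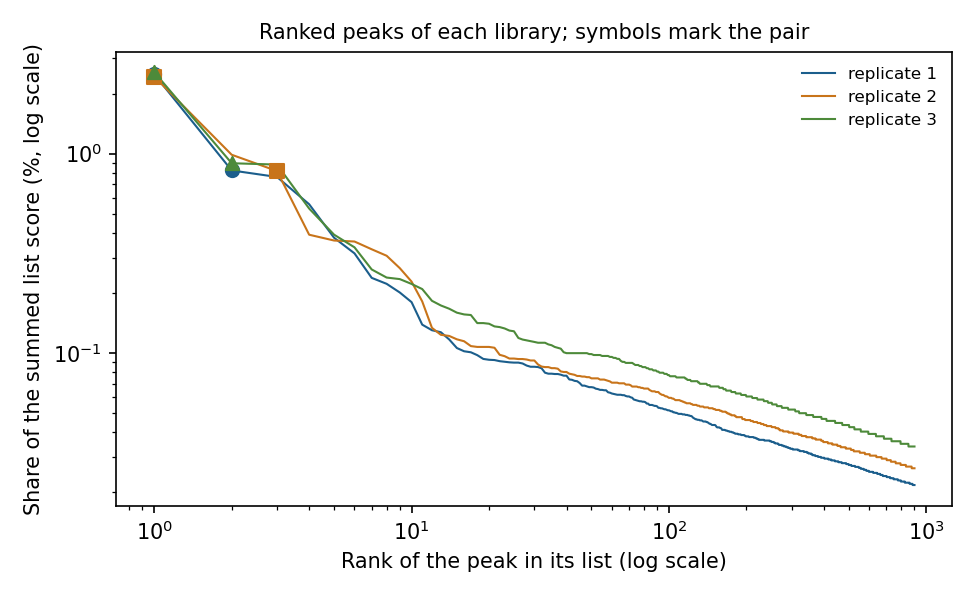
Share of the summed list score (percent, log scale) against the rank of the peak (log scale) for the 900 highest-scoring peaks of each library, 1 line per replicate. Symbols mark the pair: the plus-strand peak stands at rank 1 with 2.43% to 2.56% of the score, and the minus-strand peak at rank 2 or 3 with 0.817% to 0.894%.

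The highest-scoring peak outside the pair was mitochondrial. In each list it was the region at 281 to 380 of the mitochondrial chromosome, with scores of 2558, 1903 and 829. The plus-strand peak was 3.27, 2.47 and 2.91 times as high as it. The minus-strand peak was 1.08, 0.829 and 1.02 times as high, so those 2 changed places in replicate 2 and differed little in the others. Among nuclear peaks, both members scored above every other peak in each list. The next nuclear peak in replicates 1 and 3 was another minus-strand peak of chromosome 4 (100882261 to 100882280), with scores of 1867 and 499. In replicate 2 it was a plus-strand peak of the same chromosome (66276201 to 66276220) that scored 756. The plus-strand member was 4.49, 6.21 and 4.83 times as high as these, and the minus-strand member 1.48, 2.09 and 1.69 times.

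Because the pair is wide and both of those nuclear peaks are 20 nt wide, the order depends on whether width is counted. Divided by the number of bins, the plus-strand peak had a score of 1675 per bin in replicate 1, 939 in replicate 2 and 482.0 in replicate 3. It then ranked 2, 1 and 2, behind the single-bin peak at 100882261 in replicates 1 and 3, which had 1867 and 499. The minus-strand peak had 919, 526 and 281 per bin and ranked 5, 5 and 4. How the caller scores a peak of several bins is not given in the sources used here, so neither order can be preferred. Wide peaks scored higher in general. The median score of peaks at least 100 nt wide was 88.5, 68.5 and 46.0 in the 3 lists. That of the 289, 200 and 91 peaks of exactly 60 nt was 58.0, 46.5 and 36.0, against 45, 36 and 27 over all peaks.

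The ratio between the members was close to 3 in every library. The plus-strand score was 3.04 times the minus-strand score in replicate 1, 2.98 times in replicate 2 and 2.86 times in replicate 3, a mean of 2.96 ± 0.09 (SD, n = 3). The coefficient of variation, which is the SD as a percent of the mean, was 2.99%. Per bin the ratio was 1.77 ± 0.05 (SD, n = 3). Since both scores of a ratio come from the same list, a scale factor of the list cancels. For comparison, the 2 highest-ranking mitochondrial regions, at 281 to 380 and 401 to 580 on the same strand, had ratios of 3.43, 2.69 and 2.25, with a coefficient of variation of 21.5%. The ratio of the plus-strand member to the mitochondrial region at 281 varied by 14.0% and that of the minus-strand member by 13.3%. Over all 190 pairs that can be formed from the 20 highest-ranking regions present in all 3 libraries, the coefficient of variation of the ratio had a median of 28.7% and ranged from 2.32% to 85.4%. Only 2 of these pairs had a lower value than the chromosome 4 pair. The plus-strand member kept a slightly closer proportion to a single-bin region on the minus strand of chromosome 18 (65612001 to 65612020), with ratios of 24.5, 25.2 and 25.6 and a coefficient of variation of 2.33%. A narrow ratio was thus not particular to the 2 members. The lowest score among the 20 regions was 94 in replicate 3, where the members had 2410 and 842. A merged region can also take scores from peaks of different bounds, whereas the members had identical bounds. The part of either in the spread was not tested. All of these ratios describe 3 libraries and carry no test.

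The share of list score held by each member also varied little between libraries when complete lists were the total, and more when the lists were cut to equal length. The 20 highest-ranking regions present in all 3 libraries were taken for comparison. The coefficient of variation of the share was 2.55% for the plus-strand member and 5.08% for the minus-strand member. For the other 18 regions it ranged from 2.86% to 46.4%, with a median of 24.2%. None of the 18 was below the plus-strand member, and 1 was below the minus-strand member. The limits of lower scores and merged bounds given above apply to these regions too. With each list limited to its 2733 highest-scoring peaks, the shares of the plus-strand member were 3.74%, 3.08% and 2.56%, with a coefficient of variation of 18.9%. Those of the minus-strand member were 1.23%, 1.03% and 0.894%, with 16.1%. Of the other 18 regions, 9 then varied less than the plus-strand member and 4 less than the minus-strand member, around a median of 19.8%. At equal list length the share of both members was thus highest in replicate 1 and lowest in replicate 3. Under the other totals tried the coefficients stayed lower. With peaks under 1.5 times the lowest score dropped they were 6.14% and 9.19%, with 2 and 3 of the 18 regions below them and a median of 28.1%. With nuclear peaks only in the total they were 3.02% and 5.81%, with 1 of the other 15 nuclear regions below each and a median of 24.7%. The ratio between the members has no list total in it and is the same under all of these.

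**Figure D3:**
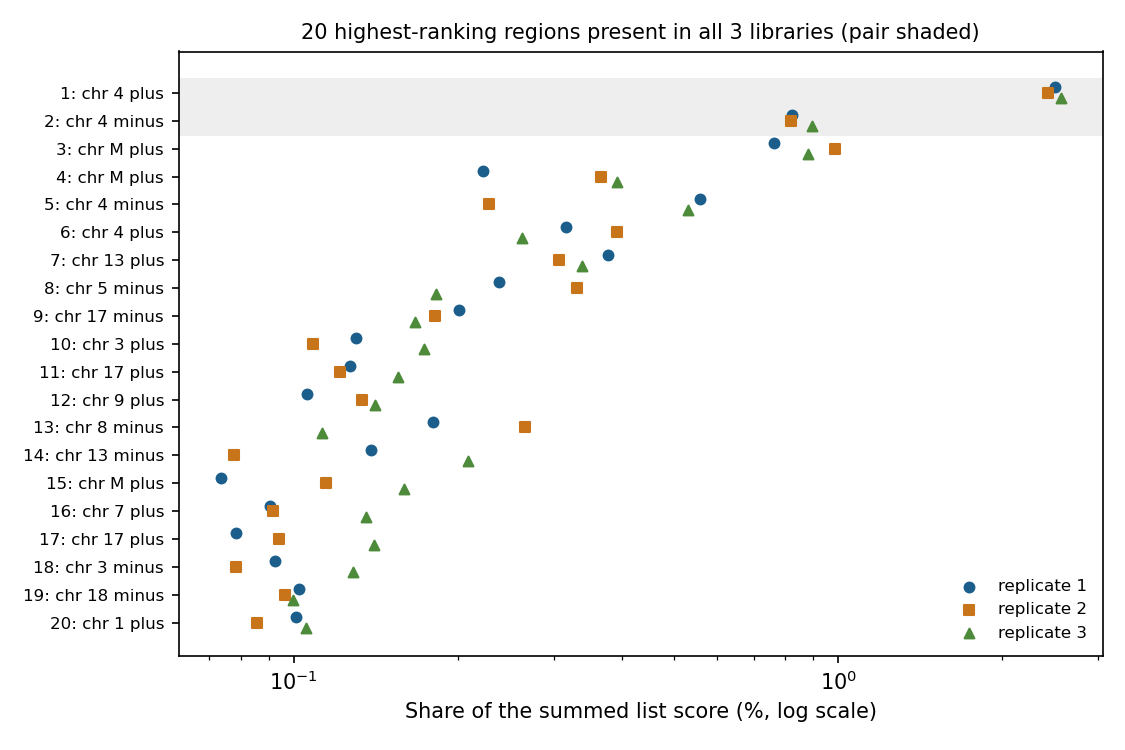
Share of the summed list score (percent, log scale) of the 20 highest-ranking regions present in all 3 SYNCRIP libraries, 1 symbol per replicate, each region labelled with its order, chromosome and strand. The shaded pair has shares of 2.43% to 2.56% and 0.817% to 0.894%, with narrow spreads when complete lists are used as the total.

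Scores of the same peak in different lists were set against each other to see whether the pair followed the other peaks. This used the 815 peaks with identical bounds. The plus-strand score of replicate 1 was 1.78 times that of replicate 2 and 3.47 times that of replicate 3. The corresponding ratios of the minus-strand peak were 1.75 and 3.28. The median ratios over the other 813 peaks were 1.53 (quartiles 1.23 and 1.87) and 2.52 (quartiles 1.97 and 3.24). Between replicates 2 and 3 the members had ratios of 1.95 and 1.87, against a median of 1.61 (quartiles 1.31 and 2.03). In each of the 3 comparisons both members lay above the median, at percentiles from 65.2 to 80.0.

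Low-scoring peaks are cut off at a different lowest score in each list, which limits their ratios. Among the 62 other peaks with at least 3 times the lowest score in every list, the median ratios were 1.69, 2.80 and 1.61. The members then lay at percentiles from 56.5 to 75.8. Their scores thus moved between lists much as those of other strong peaks did, on the upper side of the middle.

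**Figure D4:**
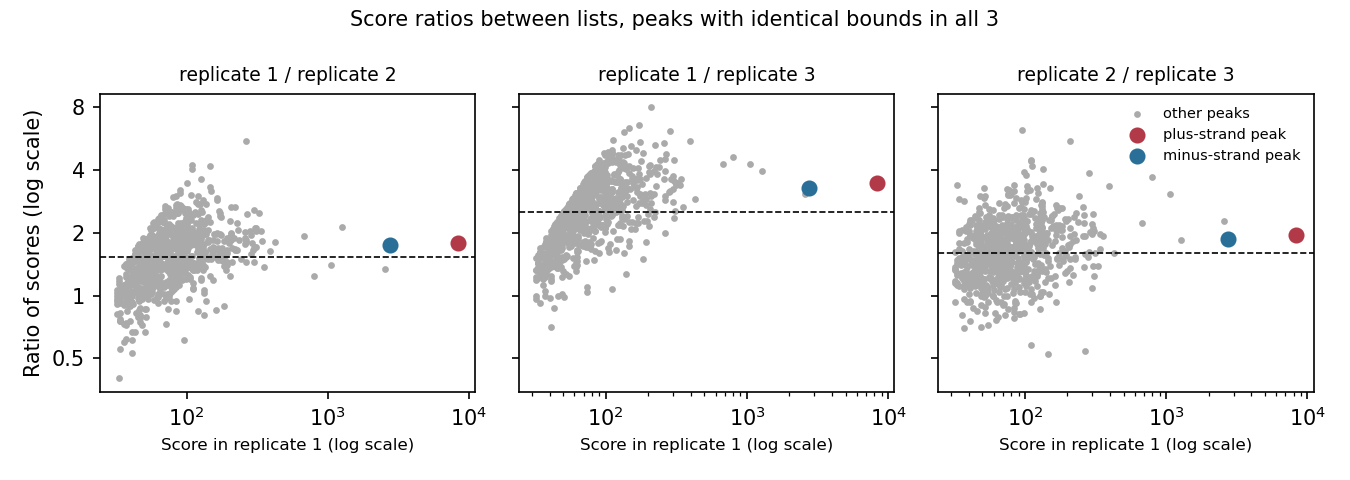
Ratio of the scores of 2 lists (log scale) against the score in replicate 1 (log scale) for the 815 peaks with identical bounds in all 3 libraries, 1 panel per pair of libraries. The dashed line is the median of the 813 other peaks, and both members of the pair lie above it in each panel (for example 3.47 and 3.28 against 2.52 for replicate 1 over replicate 3).

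Beyond the window, the pair stood alone. In replicates 1 and 2 the nearest peak at lower coordinates was the same 20-nt plus-strand peak at 77277201 to 77277220, 182560 nt away, with scores of 95 and 55. In replicate 3 it was a minus-strand peak 5754 kb away, with a score of 27. The nearest peak at higher coordinates was 2433 kb away in replicate 1, 3774 kb in replicate 2 and 5369 kb in replicate 3, with scores of 36, 33 and 21. The last 3 scores are near the lowest of their lists, which are 32, 26 and 20. No list thus held a longer row of peaks around the pair, though signal below the lowest score of a list would not be seen.

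Isolation by itself was not rare, whereas neighbouring peaks close together on opposite strands were. No other peak lay within 100 kb of 10.8% of nuclear peaks in replicate 1 (95% Wilson interval 10.02 to 11.7), 12.04% in replicate 2 (11.1 to 13.1) and 15.5% in replicate 3 (14.1 to 16.9). Neighbouring peaks on opposite strands at most 5 kb apart occurred 10, 10 and 3 times in the 3 lists, among 5596, 4079 and 2659 nuclear peaks. Of these, 1, 2 and 1 had no further peak within 100 kb, and the chromosome 4 pair was among them each time. The only other such pair, in replicate 2, had a lower score of 27, near the lowest score of that list. The distances of 5 kb and 100 kb were chosen after the positions of the pair were known, so its inclusion was fixed in advance.

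The pair also held a large part of the score of its chromosome. It held 29.5%, 29.3% and 29.4% of the score of all chromosome 4 peaks, which numbered 430, 318 and 215. With the pair, chromosome 4 had the highest summed score of all nuclear chromosomes in each list, at 11.3%, 11.1% and 11.7% of the total. With the pair left out of both the chromosome and the total, chromosome 4 held 8.21%, 8.10% and 8.59% of the remaining score. It then came second to chromosome 1, which held 8.27%, 9.09% and 9.32% of the same reduced total. In this comparison only chromosome 4 lost its highest peaks. Since the pair was chosen for its scores, the fall in share was fixed in advance.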

How the data were processed

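The analysis started from 1 peak list for each SYNCRIP library. Per the submitters' processing notes, STAR was used with rn6, and the names of the deposited lists give Piranha with 20-nt bins. The authors deposited a whole-number score per peak, whose scale is not stated. The sources used here do not give the caller's threshold, how PCR copies were handled or whether IgG reads entered the calls. A further column is 0 in every row and was not used. Sequencing depth is unknown.

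Positions are 1-based. In replicate 1, 1 row with its end before its start was left out. Peaks overlapping by at least 1 bp on a strand were merged into regions, a region taking the highest score of each library. Ranked regions are the 20 with the highest mean within-list percentile among those in all 3 libraries. Gene lists were not used, and no promoter or genome sequence was read, since the tables at hand are of another build. No significance test was made. The members and comparisons were chosen with earlier results of these data known. Shares and merging were tested on simulated data (Python 3.11.15, pandas 2.3.3, scipy 1.17.1).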

Additional observations from a re-analysis of the deposited data

How the results depend on the processing

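The plus-strand share of list score was 2.50% as reported. It was 2.59% with nuclear peaks only in the total, 3.13% at equal list length, 4.10% when peaks under 1.5 times the lowest score were dropped, and 0.626% with scores per bin. Of the totals chosen after seeing the data, leaving out the pair gave 2.58% and using its own strand 4.75%. The minus-strand share, 0.845% as reported, was 1.05% at equal list length, 1.39% under the stricter score, 0.353% per bin and 1.79% of its own strand. The per-bin values divide the members' own scores by 5 and 3 bins as well as the total, and the ratio of 2.96 became 1.77 in the same way. The other changes come from a different total. Leaving out each replicate gave 2.47% to 2.53%, 0.820% to 0.859% and ratios of 2.92 to 3.01. The window held 2 peaks per library under each of the 5 alternatives run, including 50 kb more on each side. None of these could change the count. The members had at least 42.1 times the lowest score of their list, and the nearest other peak lay 182560 nt away. The remaining alternatives only left out a replicate. Precision is limited by 3 libraries and an unknown depth. No paired analysis was possible because peak lists of only 1 group, SYNCRIP, were used.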
